A study of Drosophila melanogaster with 4 samples.

Results

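The X chromosome of Drosophila melanogaster carried 805 of the 4752 regions enriched for histone H3 dimethylated at lysine 4 (H3K4me2) in replicate 1 of a chromatin immunoprecipitation experiment, and 804 of the 4701 in replicate 2. The members were all enriched regions that the authors' lists placed on X, whatever their length or score. The material was nuclei of wild-type Oregon-R larvae in the third instar, raised from population cages, and every sample shared this strain, genotype and stage. The study held 2 H3K4me2 immunoprecipitates and 2 input libraries, each input serving the immunoprecipitate of its own replicate number. A further list combined the replicates. Nothing tells whether each replicate had its own batch of larvae, and their spread may then be technical. The labels also give neither the sex of the larvae nor the tissues that were pooled. The lists hold no read totals, and the depth behind them is unknown.

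H3K4me2 is laid down by enzymes of the Set1 and Trithorax families. It flanks the start sites of active genes, where trimethylation of the same lysine peaks, and it also lies over enhancers and over genes poised for activity. The X is the sex chromosome that Drosophila females carry as a pair and males carry as a single copy. In males the MSL (male-specific lethal) complex binds active X genes, acetylates histone H4 there and raises their transcription. The end of X next to the centromere passes into heterochromatin, which is poor in genes and rich in repeats. Autosomal arms 2L, 3L and 3R served as the background for X. No other arm was compared, and the arms below are these 3. Positions follow FlyBase release 5 and are counted from 1. No gene, exon or intron was assigned to a position, since the gene table at hand follows another release.

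Marked chromatin on X came in longer pieces than on 2L, 3L and 3R, and per Mb the pieces were about as numerous as on 2L and fewer than on 3L and 3R. X had 35.9 regions per Mb in each replicate, against 37.8 in replicate 1 and 37.1 in replicate 2 on 2L, 3L and 3R together. 2L had 35.8 and 35.03, 3L 37.4 and 36.95, and 3R 39.7 and 38.9 regions per Mb. The mean region on X spanned 4975 bp (replicate 1) and 4915 bp (replicate 2), compared with 4382 and 4353 bp on those arms. Number and length together set the covered share. X was covered to 17.9% in replicate 1 and 17.6% in replicate 2, which was 2.41 ± 0.0810 percentage points above 2L and 1.85 ± 0.121 above 3L (SD of the within-library difference, n = 2). The difference from 3R was 0.0417 points in replicate 1 and 0.275 in replicate 2, no larger on average than its own SD of 0.165. Each comparison of X with the arms has 2 replicates, for which the exact two-sided sign-flip permutation test cannot go below p = 0.5. That p was reached for covered share, median length and median gap, so no difference between X and the arms passed a test, and X values are given as a description in each library.

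The excess in length lay in the middle and upper part of the distribution, and the shortest regions were alike on X and the arms. In replicates 1 and 2 lengths began at 1309 and 1301 bp on X and at 1301 and 1303 bp on the arms. Whether a length limit of the unknown region caller makes the lower ends alike was not tested. The 10th percentile of length on X was 1999 and 2019 bp in replicates 1 and 2, against 1992 and 2023 bp on the arms. At the median X was ahead by 470 bp in the former and 416 bp in the latter, with 3822 and 3779 bp. At the 90th percentile it was ahead by 1168 and 1377 bp, with 9167 and 9322 bp. The longest region in each replicate was nevertheless on 3R, at 31511 and 38125 bp, against 25425 and 27905 bp on X. In both libraries the X median exceeded that of each of 2L, 3L and 3R, whose medians ran from 3275 to 3442 bp. Regions under 2 kb made up 10.1% of X regions in replicate 1 and 9.83% in replicate 2 (81 and 79 regions), against 10.0% and 9.53% of all regions in those lists.

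Regions of 5 kb or more numbered 282 on X in replicate 1 and 276 in replicate 2. They were 35.0% and 34.3% of the X regions, where 27.8% and 27.0% of all regions in the lists reached that length. They held 60.4% and 59.2% of the marked X sequence, 10.2 ± 0.124 percentage points more than on 2L, 3L and 3R together (SD, n = 2). Regions of 10 kb or more numbered 70 and 67, or 8.70% and 8.33% of X regions, against 5.98% and 5.55% of each whole list. On 2L, 3L and 3R the share was at most 6.58% in either replicate. Joining neighbours under 500 bp apart left X ahead in median length, by 623 ± 16.6 bp (SD, n = 2). Restricting each list to regions that scored above its median raised the lead to 774 ± 140 bp.

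**Figure D1:**
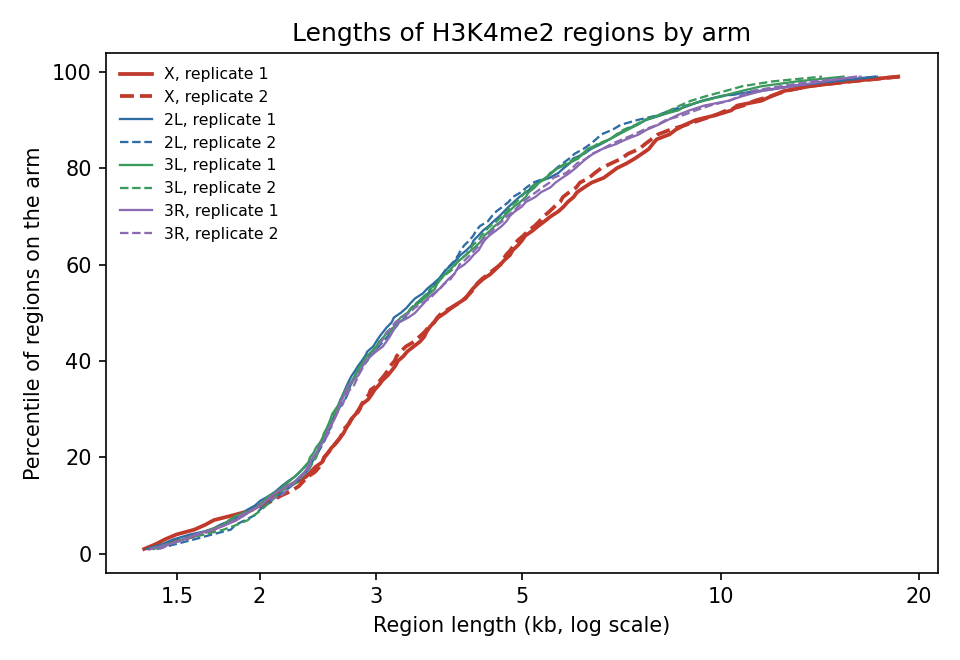
Percentiles of region length on each arm, with length in kb on a log axis and 1 line per arm and replicate. The X lines join the others near the 10th percentile, about 2 kb, and lie to the right of them from the 25th percentile to the 90th, where X stands at 9.17 and 9.32 kb.

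Most of the 10 longest X domains had a marked neighbour within a few kb. The first, X 1751333 to 1776757 in replicate 1, spanned 25.4 kb there and 27.9 kb in replicate 2, where it ended at 1779212. The second, X 508210 to 532929, spanned 24.7 and 24.6 kb and had 83.5 kb of unmarked sequence on its distal side and 4.55 kb on the other. The third, X 8779414 to 8803165, spanned 23.8 and 23.4 kb and closed a run of marked chromatin, with 63.8 kb of unmarked sequence after it. It scored 1.65 and 1.61, rank 404 and rank 340 among X regions, so its length was not matched by its score. The first and second ranked 4 and 28 by score in replicate 1.

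The other 7 of the 10, which were ranked by the shorter of the lengths in both replicates, were X 8032348 to 8053434, 1502441 to 1522621, 9041347 to 9060088, 3996386 to 4014980, 10735476 to 10754061, 18535290 to 18553813 and 11479583 to 11497874, and replicate 1 gave them lengths between 18.3 and 21.1 kb. The domain at X 1502441 was the one that stood by itself, with 29.6 kb unmarked before it and 35.6 kb after it in replicate 1. It ranked 353 and 361 by score. In contrast, the domain at X 10735476 began 78 bp after its neighbour in replicate 1, and in replicate 2 a single region of 21.4 kb, starting at 10732430, covered both. The domain at X 11479583 followed another of 16.9 kb (X 11459932 to 11476809) after 2.77 kb, so that a pair of very long regions lay side by side.

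Scores on X rose with length, and regions of 10 kb or more had the highest median scores, 2.14 in replicate 1 and 1.88 in replicate 2. The score of a region is a deposited value whose scale is not stated anywhere, and it was used within each list. Across X regions the Spearman rho between length and score was 0.73 in replicate 1 (805 regions) and 0.72 in replicate 2 (804 regions). On 2L, 3L and 3R the rho was likewise 0.73 and 0.72. It is a description, since regions of 1 library share their reads and input. On X, 433 regions (53.8%) in replicate 1 and 438 (54.5%) in replicate 2 scored above the median of their list, which by construction splits all regions at 50.0%. On 2L, 3L and 3R the share was 49.9% and 49.3%.

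Within length classes the lead of X in score was not uniform. Among regions of 5 to 10 kb, 83.5% and 83.7% of X regions were above the list median, against 80.4% on the arms in each replicate. From 2.5 to 3 kb the order was the opposite, with 38.5% and 37.4% on X against 48.8% and 43.5% on the arms. From 3 to 5 kb X was lower in replicate 1 (54.7% against 57.5%) and higher in replicate 2 (60.3% against 58.7%). X had a smaller share of its regions in the class of 2 to 3 kb and a larger share above 5 kb. Whether this accounts for the higher share of X regions above the list median was not tested.

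The 5 X regions with the highest mean score were X 18271887 to 18280135, X 4440437 to 4448971, X 11013775 to 11023917, X 7822582 to 7834669 and X 6178443 to 6195974. Their mean scores ran from 2.501 to 2.58. Their lengths in replicate 1 were 8.25, 8.54, 10.1, 12.1 and 17.5 kb, so none was among the 10 longest. The region at X 4440437 lay at the edge of an unmarked stretch, with 62.7 kb without a region after it in replicate 1.

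Gaps on X were shorter than on each of the 3 arms up to the 75th percentile, and the longest gaps were not. The 25th percentile of the gap between neighbouring regions was 1.81 kb in replicate 1 and 1.92 kb in replicate 2 on X, against 2.49 and 2.498 kb on 2L, 3L and 3R. The median was 6.34 and 6.24 kb against 7.16 and 7.404 kb. The 90th percentile was 67.8 and 64.9 kb against 58.0 and 57.9 kb. At this percentile X stood above 3L and 3R in both replicates, but 2L had 63.9 and 65.4 kb, and so lay below X in replicate 1 and above it in replicate 2. The longest gap on 2L was 478 kb, against 367 kb on X. Mean gaps were nearly equal, at 22.9 and 23.0 kb on X and 22.0 and 22.6 kb on the arms. The lead at the median, 0.994 ± 0.238 kb shorter on X (SD, n = 2), shrank to 0.272 ± 0.129 kb when regions under 500 bp apart were joined and grew to 3.66 ± 0.525 kb among regions above the list's median score.

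As a share of all gaps, X exceeded each of the 3 arms in both replicates under 500 bp, from 0.5 to 2 kb and from 50 to 100 kb. Gaps under 500 bp numbered 86 on X in replicate 1 and 73 in replicate 2, or 10.7% and 9.09% of X gaps, against 7.198% and 6.62% on the arms together. Gaps of 20 to 50 kb made up 13.7% and 14.2% on X against 16.5% and 16.6%. Gaps of 100 kb or more were about as frequent, 42 in each replicate on X, which was 5.22% and 5.23%, against 4.78% and 5.12%, and on 2L, with 5.47% and 5.71%, they were more frequent than on X.

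**Figure D2:**
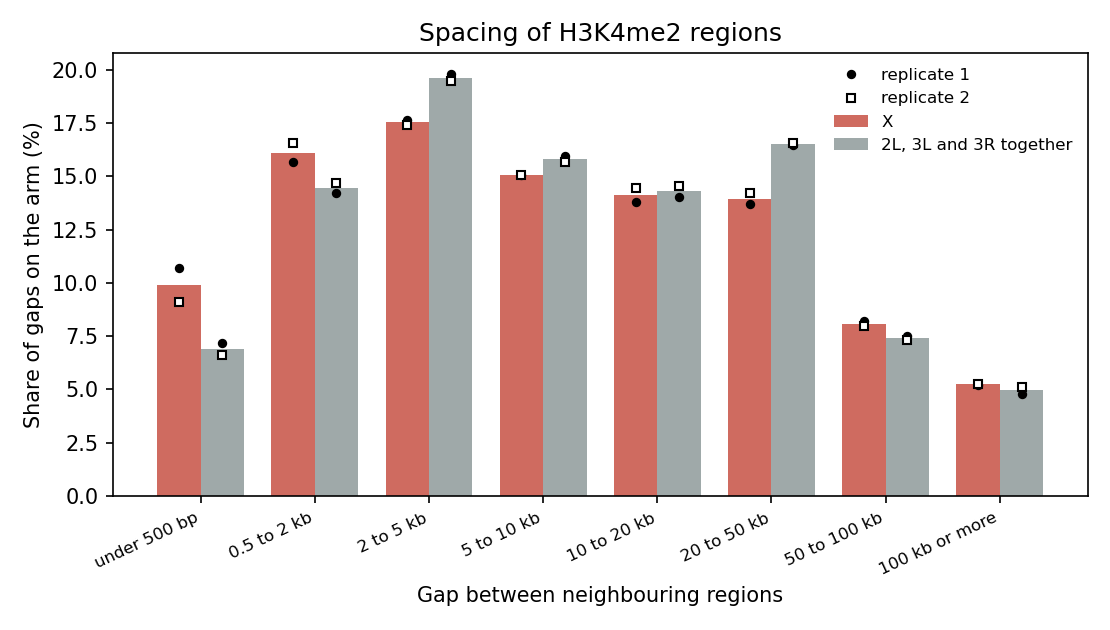
Share of gaps between neighbouring regions, in percent of all gaps on X (red bars) or on 2L, 3L and 3R (grey bars), by gap length; bars are means of 2 replicates and the marks are the replicates. X exceeds the arms below 2 kb, for example 10.7% and 9.09% under 500 bp, and lies below them from 2 to 5 kb and from 20 to 50 kb.

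Chains of closely spaced regions were common on X. With neighbours under 1 kb apart counted as a chain, 253 X regions (31.4%) in replicate 1 and 222 (27.6%) in replicate 2 belonged to a chain of 2 or more, against 22.4% and 21.9% on the arms. The longest chain on X in replicate 1 ran from 6565328 to 6595794, with 4 regions in each replicate. Marks filled 97.6% of its 30.5 kb in replicate 1 and 94.9% of its 30.3 kb in replicate 2. The next, X 16164131 to 16193232, held 4 regions in replicate 1 and was cut short to 14.0 kb and 2 regions in replicate 2. The third, X 6167164 to 6195974, held 3 regions in replicate 1 and 5 in replicate 2, where it reached 38.7 kb. The third chain included the high-scoring region at X 6178443, which replicate 2 divided. For the second and the third chain, the lists thus placed breaks differently.

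Marked chromatin on X was gathered into blocks that were denser inside than those of the arms. A block here is the sequence between neighbouring stretches of 50 kb or more that hold no region in either replicate, a definition chosen after the lists had been seen. X had 108 blocks with a median span of 56.9 kb, and they took up 47.7% of the chromosome. Inside them 37.4% of the sequence was marked in replicate 1 and 36.9% in replicate 2. The corresponding values were 32.0% and 31.3% on 2L, 31.3% and 30.6% on 3L, and 32.5% and 31.7% on 3R. X exceeded the 3 arms together by 5.58 ± 0.215 percentage points (SD, n = 2; two-sided exact permutation p = 0.5, the smallest possible). With blocks split at stretches of 100 kb in place of 50 kb the difference was 2.74 ± 0.169 points. Every region lies in a block, so the marked share inside is the covered share over the share of the arm in blocks. The difference thus restates those values and is no separate result. A block also begins and ends with a marked region, which by construction raises the marked share of short blocks. Blocks of like size were not compared.

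X had fewer lone regions than the arms, with the smallest distance from 3R. A single marked stretch made up 15 of the 108 blocks on X (13.9%), against 27.3% on 2L, 27.4% on 3L and 19.4% on 3R. Regions with 50 kb or more unmarked on both sides numbered 16 on X in replicate 1 and 14 in replicate 2, or 1.99% and 1.74% of its regions. The share was 3.52% and 3.47% on 2L, 3.38% and 3.197% on 3L, and 2.25% and 2.21% on 3R. Very large blocks were also less prominent on X. Its longest was 560 kb, against 672 kb on 2L, 875 kb on 3L and 718 kb on 3R, and blocks of 200 kb or more held 48.6% of the block sequence on X and 60.1% on the arms.

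**Figure D3:**
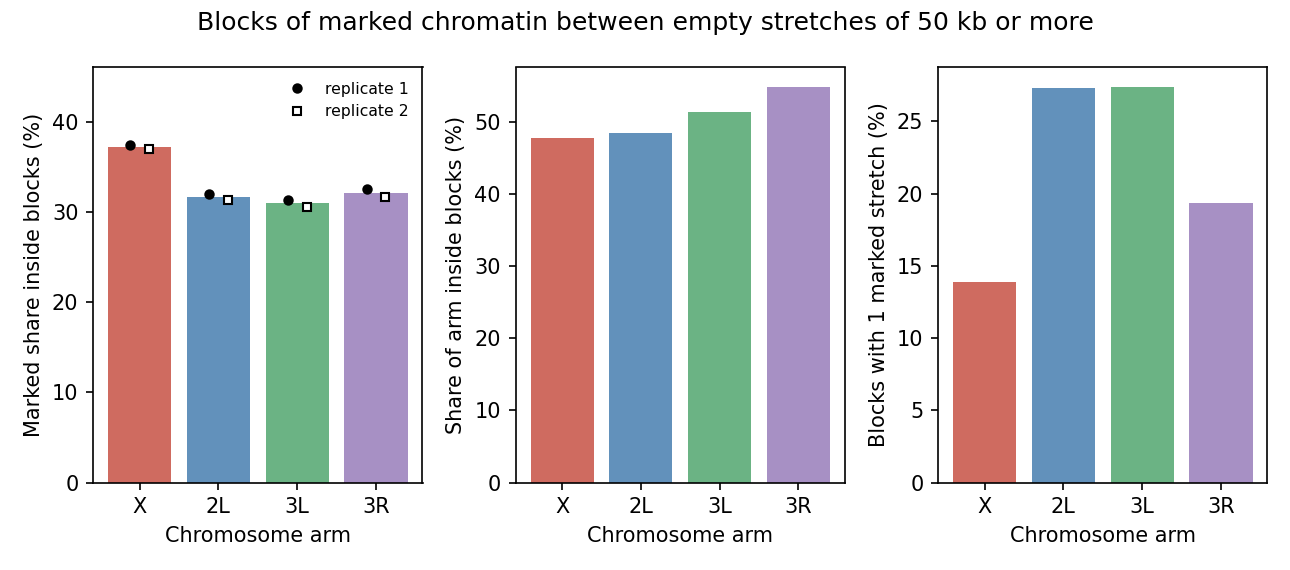
Blocks of marked chromatin on X, 2L, 3L and 3R, separated by stretches of 50 kb or more without a region in either replicate: the marked share inside blocks (bars, mean of 2 replicates; marks, replicates), the share of the arm in blocks and the share of blocks with 1 marked stretch, all in percent. Of the 4, X has the densest blocks, 37.4% and 36.9%, the smallest share of the arm in blocks, 47.7%, and the smallest share of blocks with 1 stretch, 13.9%.

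The largest X block ran from 15340626 to 15900495, a span of 560 kb with 35 regions in replicate 1 and 36 in replicate 2 and 40.1% and 38.6% of its sequence marked. The second, X 8290751 to 8803165, was nearly as long at 512 kb but sparser, with 25.2% and 24.6% marked. It ended with the third longest domain described above. The block at X 1901642 to 2261096 was shorter, 359 kb, and the densest of the 6 largest, with 45.2% and 45.8% marked in 32 and 37 regions. The other 3 of these 6 were X 16439666 to 16863214, X 6416917 to 6771556, which contained the chain that was longest in replicate 1, and X 17468937 to 17804169.

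Coverage varied between dense and sparse stretches along X, about as much as on the arms. Over complete windows of 1 Mb the SD over the mean was 0.327 on X, 0.403 on 2L, 0.367 on 3L and 0.314 on 3R. Of the 22 complete windows of 1 Mb, the densest was X 15000001 to 16000000, at 26.9% ± 0.717 (SD, n = 2), and it directly followed the sparsest, X 14000001 to 15000000, at 8.46% ± 0.139. Windows at 11 to 12 Mb, 6 to 7 Mb and 1 to 2 Mb followed the densest with 26.3% ± 0.0870, 26.1% ± 0.0197 and 25.7% ± 0.442. The windows between these fell to 12.01% ± 0.678 at 12 to 13 Mb and 12.4% ± 0.0394 at 3 to 4 Mb. Coverage over the 22 windows went along with the number of regions in a window (Spearman rho 0.88) more than with their median length (rho 0.39). Over the 74 windows of the arms these rho values were 0.93 and 0.44. For X this is a description over windows of 1 chromosome in the same libraries. Coverage is made up of the number and length of regions, so these relations are in part built in by construction.

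At a finer scale, the 224 windows of 100 kb on X ranged from 0% to 71.1%. Of these, 28 (12.5%) were empty in both replicates and 19 (8.48%) were covered to 40% or more, against 11.5% and 6.90% of the 754 windows on the arms. On 2L the shares were 13.5% and 7.83%. The most covered window, X 19500001 to 19600000, was marked over 72.2% in replicate 1 and 70.1% in replicate 2. No 100 kb window of 2L, 3L or 3R exceeded a mean of 66.6%. It held 11 regions in each replicate, from X 19497987 to X 19600654 in replicate 1, with lengths of 1.43 to 13.6 kb and gaps of 0.198 to 6.20 kb. The second, X 15600001 to 15700000, reached 66.7% and 61.1%, the replicates differing by 5.62 points, which was the widest difference of any X window. A region of 21.8 kb in replicate 1 there (X 15623415 to 15645189) was divided in replicate 2 by a gap of 279 bp. The third, X 2000001 to 2100000, had 54.8% and 54.7%. The first 3 empty windows in order of position were X 2700001 to 2800000, 4600001 to 4700000 and 4700001 to 4800000.

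Marking on X was low next to the centromeric end, without a steady decline along the arm. The 5 Mb from 15000001 to 20000000 formed the most covered part of X, with 21.0% ± 0.415, 41.2 and 40.2 regions per Mb and median lengths of 4106 and 4167 bp. The remaining 2.42 Mb, from 20000001 to the end of the assembled sequence, had 9.23% ± 0.102 covered, 22.3 and 22.7 regions per Mb and median lengths of 3288 and 3092 bp. Regions were thus both rarer and shorter there, and 3 regions of 10 kb or more were left in each replicate. The gaps between those that remained were short, with a median of 3.99 and 4.08 kb. The last 1 Mb had 6.65% ± 0.04999 covered and the 1 Mb before it 9.12% ± 0.0491, while the third reached 20.5% ± 0.731 (SD, n = 2). The centromeric 1 Mb of 2L was covered to 6.91%, that of 3L to 1.60% and that of 3R to 16.9%. How much of this sequence can be aligned uniquely was not measured.

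A region lay within a few kb of each end of the assembled sequence. The first region at the telomeric end, X 4402 to 6522, was 2121 bp long in replicate 1 and 2136 bp in replicate 2, with scores of 1.09 and 1.11, and the next began at X 8716 and X 8520. The last region, X 22413330 to 22417008, was 3679 bp long, scored 2.10 and 1.85 and ended 5.82 kb before the sequence did. It lay beyond a stretch of 151 kb, X 22257836 to 22409084, without a region in either replicate. From X 22000001 to the end 2.76% of the sequence was covered. Over the telomeric 1 Mb the X had 17.5% ± 0.445 covered, close to the whole chromosome, where 2L had 24.96% ± 0.119, 3L 23.1% ± 0.614 and 3R 15.1% ± 0.150 at that end (SD, n = 2).

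**Figure D4:**
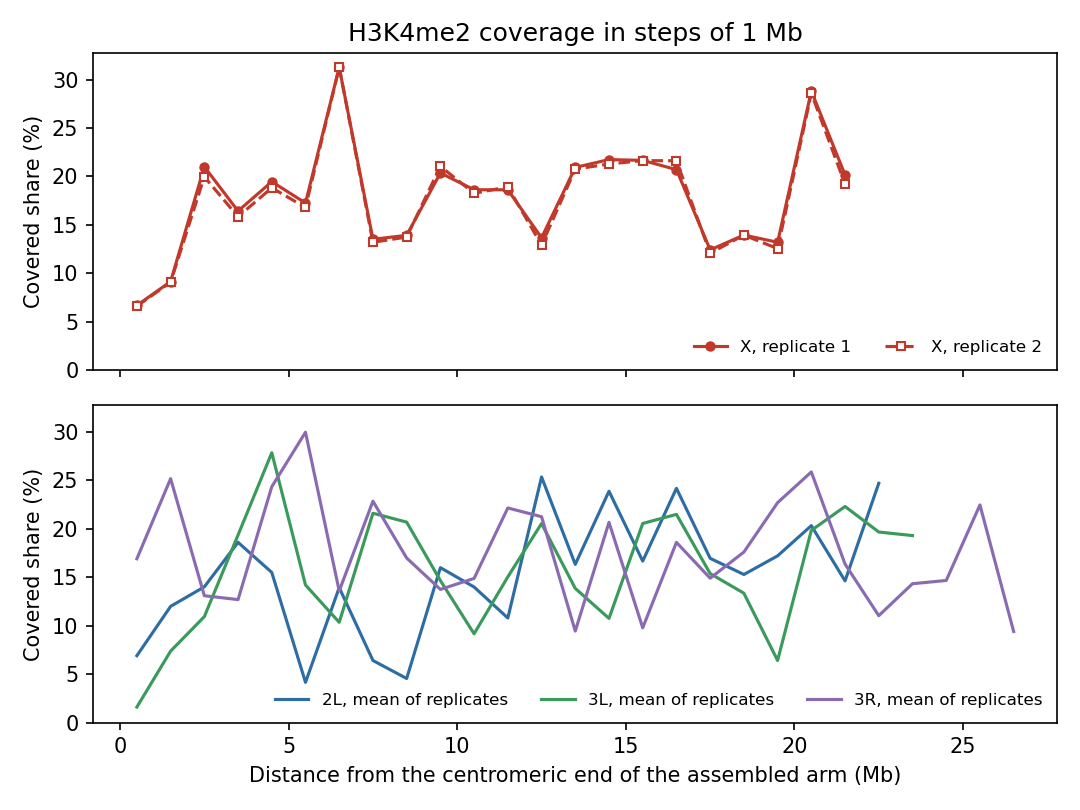
Covered share in percent in steps of 1 Mb from the centromeric end of each assembled arm, in Mb; the upper panel shows X in both replicates and the lower panel the means for 2L, 3L and 3R. X starts at 6.65% and 9.12% in the first steps and is at 20.5% in the third, and the replicates nearly coincide.

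X also held long empty stretches. Stretches of 100 kb or more without a region in either replicate numbered 41 and took up 6.96 Mb, or 31.0% of X, against 31.8% of 2L, 28.5% of 3L and 26.7% of 3R. In the longest class X stood above all 3. X had 12 stretches of 200 kb or more, 5.35 per 10 Mb, where 2L had 2.61, 3L 4.07 and 3R 2.51. Together they took up 13.7% of X and 8.09% of the arms. These counts come from the union of both replicates, so they have no SD.

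The longest empty stretches were X 20530666 to 20897671 (367 kb) and X 21501682 to 21845637 (344 kb), both near the centromere. The third, X 14143529 to 14473933 (330 kb), lay in the body of the chromosome, in its sparsest 1 Mb window. They were followed by X 7233885 to 7499287 (265 kb), 12100087 to 12355145 (255 kb), 19784551 to 20015877 (231 kb), 22035212 to 22254483 (219 kb) and 4983027 to 5201059 (218 kb). Of these 8, the stretch at X 14143529 was the one inside which the combined list placed whole regions, 2 of them, with scores of 0.29 and 0.51. Both were shorter than any X region in the replicate lists. Stretches of 100 kb or more took up 70.4% of the sequence beyond 20 Mb, 40.9% from 10 to 15 Mb and 18.1% of the first 5 Mb.

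A pair of small islands lay between neighbouring empty stretches of 200 kb or more. The island at X 14093354 to 14143528 spanned 50.2 kb with 6 regions in each replicate and 50.4% and 51.9% of its sequence marked. The island at X 21474209 to 21501681 spanned 27.5 kb, with 5 regions in each replicate and 47.7% and 46.9% marked. These values are above the 37.4% and 36.9% inside X blocks as a whole, but blocks of like size were not compared. An island begins and ends with a marked region, which by construction raises the marked share of a short one. The islands were picked out after the lists had been seen.

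The replicates marked nearly the same X sequence, with more broken regions on X than on the arms. They shared 3.77 Mb of X, which was 90.1% of what either marked, against 91.4% on 2L, 91.3% on 3L and 91.8% on 3R. Of the X regions in replicate 1, 772 of 805 overlapped a region of replicate 2 (95.9%, exact binomial 95% interval 94.3 to 97.2), with 95.5% over the whole list. In the other direction 770 of 804 did so (95.8%, 94.1 to 97.1), with 97.3% over the whole list. The intervals cover counting error only and treat regions as independent. Replicate 2 thus had 34 X regions without a counterpart, 4.23% of its X regions, against 1.86% on 2L, 2.43% on 3L and 2.12% on 3R. In replicate 1 the 33 such regions were 4.10% of X regions, against 4.59% on the arms.

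X regions were also more often divided in the other replicate. On X, 36 regions of replicate 1 (4.47%) spanned more than 1 region of replicate 2, and 38 of replicate 2 (4.73%) more than 1 of replicate 1, against 2.39% and 1.97% on the arms. The 671 one-to-one pairs had edges that differed by a median of 77 bp, against 63 bp on the arms. Scores of the paired regions had a Spearman rho of 0.97, a description over regions that share 2 libraries. Regions of 10 kb or more on X met one of that length in the other replicate in 80.0% of cases from replicate 1 and 83.6% from replicate 2, against 85.2% and 92.0% on the arms.

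X regions of a single replicate were short and scored low. The median X region without a counterpart measured 1604 bp (replicate 1) and 1663 bp (replicate 2), and the median one with a counterpart 4014 and 4024 bp. Median scores were 0.51 and 0.50 against 1.68 and 1.52. The 3 that scored highest in replicate 1 were X 10359548 to 10360939 (0.81), X 10996721 to 10998962 (0.77) and X 14927446 to 14928885 (0.73). In replicate 2 they were X 2226874 to 2229524 (0.67), X 16299642 to 16303007 (0.65) and X 10523276 to 10524631 (0.60). The combined list held all 6.

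**Figure D5:**
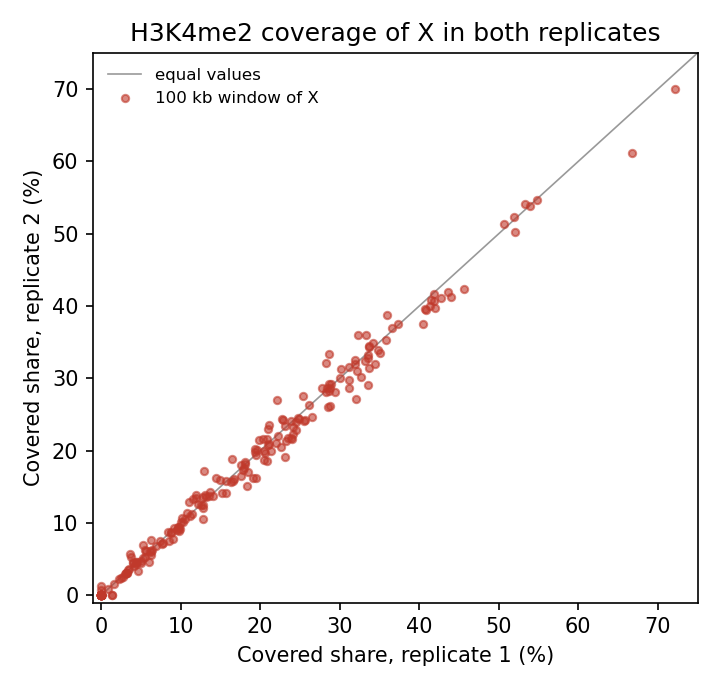
Covered share in percent of the 224 windows of 100 kb on X, replicate 1 against replicate 2, with a line of equal values. Points follow the line, and the replicates differ by at most 5.62 percentage points, in the window with 66.7% and 61.1%.

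The combined list had 846 enriched regions on X covering 19.8% of it, and no depleted region there. Of these, 714 (84.4%, exact 95% interval 81.8 to 86.8) overlapped both replicates, against 87.8% on the arms, and 71 (8.39%, 6.61 to 10.5) overlapped neither, against 6.03%. The 71 had a median score of 0.35, and their median length was 1337 bp. The one that scored highest, X 3184 to 4185 (2.07), lay just outside the first region of the replicates at the telomeric end. The next 4 were X 10358162 to 10359297, 14159616 to 14160638, 12393530 to 12394975 and 15389914 to 15390916, and scored 0.50 to 0.54. Lengths of X regions began at 1001 bp in the combined list, but at 1309 and 1301 bp in replicates 1 and 2. The combined list thus held regions shorter than any in the replicate lists. How far this adds to the 71 was not tested.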

How the data were processed

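H3K4me2 ChIP-seq data of 2 immunoprecipitates and 2 inputs were used as the authors' lists of enriched regions, in GFF3 format with FlyBase r5 coordinates per the file headers. The submitters' processing notes name Bowtie 0.12.7 as aligner. No source used here gives the region caller, its threshold or how replicates were combined. The deposited score is 1 number per region on an unstated scale. The lists hold no read counts, so no depth or read-based precision can be given. Of the deposited columns, start, end and score were used. Values of X were compared with 2L, 3L and 3R within each library, by mean and SD over 2 replicates and an exact two-sided sign-flip permutation test. Gaps are the bases between neighbouring regions of a list. Overlap needed 1 bp. Interval code was checked on simulated lists with known answers. Regions named are the 10 longest and 5 highest-scoring on X in both replicates, the 3 highest-scoring of each replicate alone, the 8 longest empty stretches, the 3 most and least covered windows of 100 kb, the 3 longest chains and the 5 highest-scoring regions of the combined list in neither replicate. Blocks, islands and the limit of 200 kb were added later. The neighbour at X 11459932 and the region at X 15623415 were named after their values were seen. The members and named sets were chosen with earlier results of these data known. Alternatives were the combined list, a score limit, joined neighbours, arms without the centromeric 1 Mb, other overlap measures and leaving out a replicate. Python 3.11.15, numpy 2.4.6, scipy 1.17.1 and matplotlib 3.10.9 were used.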

Additional observations from a re-analysis of the deposited data

How the results depend on the processing

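None of the 24 alternatives for the 4 differences between X and the 3 arms together reversed the difference. Of all 65 alternatives over 11 results, 38 moved a value by more than its error and 27 did not. Of the 27, 19 left out a replicate, and in 18 of these either of 2 values lies within 1 SD of their mean by construction. In the combined list X had 19.8% covered, 37.7 regions per Mb, a median length of 3916 bp, a median gap of 5.65 kb, 38.4% of regions of 5 kb or more and 50.6% of sequence in empty stretches of 50 kb or more, with X minus arms at 1.99 points of coverage, 503.5 bp of length and 6.396 points inside blocks. With only regions above the list's median score, the same X values were 12.6%, 19.4 per Mb, 5400 bp, 10.9 kb, 55.2% and 71.8%, the differences 2.05 points, 774 bp and -3.66 kb of gap, and the replicate overlap 87.3%. With regions under 500 bp apart joined, X had 32.3 regions per Mb, a median length of 4196 bp, a median gap of 8.38 kb and 39.8% of regions of 5 kb or more, and differed from the arms by 623 bp in length and -0.272 kb in gap. Without the centromeric 1 Mb of each arm, X had 18.3% covered, 36.6 regions per Mb, a median length of 3894.5 bp, a median gap of 6.43 kb, 35.3% of regions of 5 kb or more and 51.5% in empty stretches, with differences of 1.59 points of coverage and 510 bp. Replicate overlap counted as regions of replicate 1 was 95.9%. The block difference of 5.58 points was 4.09, 4.18 and 2.74 with blocks split at 20, 30 and 100 kb, and 5.49 to 6.05 with either replicate left out, alternatives chosen after seeing the data. Fewer or joined regions change lengths and gaps by construction; for the other changes the cause was not tested. No paired analysis was possible because no list of the 2 input libraries was at hand; differences between X and the arms were taken within each library.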
